A study of Drosophila melanogaster with 3 samples.

Results

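The Iroquois genes of Drosophila melanogaster are araucan (ara), caupolican (caup) and mirror (mirr), chosen by their symbols, and they are 3 of the 13945 protein-coding genes annotated on the 6 chromosome arms used. Combgap binding near them was read from chromatin immunoprecipitation and sequencing (ChIP-seq) of whole embryos, in which chromatin bound by one protein is recovered with an antibody and sequenced. The flies, of a single strain, expressed Combgap, the product of cg, with green fluorescent protein (GFP) fused to its C-terminal end, and an antibody against GFP was used. The labels do not say which promoter drives the fusion or whether untagged Combgap was also present. The 3 samples were biological replicates of 1 group, embryos of mixed sex aged 0 to 24 h, so there was no contrast between conditions, and each peak averages over all tissues and stages of the embryo. A peak is an interval where recovered fragments pile up above a control library, and its summit is the position of the highest pile-up. The labelled tissue cannot be checked against marker genes, since no expression was measured.

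The 3 genes encode closely related homeodomain proteins of the TALE class, which bind DNA and switch other genes on or off. Imaginal discs are the larval sheets of cells that form the adult body. There, ara and caup act upstream of proneural genes of the achaete-scute complex and help to specify the notum and wing veins. All 3 genes act in the dorsal eye. In the ovary mirr patterns the egg chamber, and the genes are also expressed in the embryo. Combgap is a zinc-finger protein that binds GT-rich elements and has been linked to Polycomb response elements, DNA stretches that recruit the Polycomb repressors.

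The genes lie in the order ara, caup, mirr on the plus strand of chromosome arm 3L (dm6 build, positions counted from 1), and each has 1 annotated start site. The gene body of ara (FBgn0015904) runs from 12580672 to 12596018, that of caup (FBgn0015919) from 12609631 to 12621798 and that of mirr (FBgn0014343) from 12693639 to 12710249. A gap of 13.6 kb separates ara from caup, and a gap of 71.8 kb with 4 long noncoding RNA (lncRNA) genes separates caup from mirr. Peaks were counted for a gene when the summit lay in its body or within 20 kb of it, in the list of 7913 summits that the authors had thresholded by irreproducible discovery rate (IDR), a measure of how well peaks recur between replicates. By this rule ara had 5 summits, caup 3 and mirr 7. As 2 summits between the starts of ara and caup fall in the windows of both genes, the complex had 13 distinct summits of the 7913. Read depth is unknown, so signal, as the authors' peak caller gave it, was used only as a rank (1 is the highest) or a ratio within a list.

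The promoters of the 3 genes carried peaks of very unequal height over sequences that all hold GAGAG and lack GTGTGT within 100 bp of the summit. Of all thresholded summits within 1 kb of a start site, 42.2% had GAGAG, 59.8% had GTGTGT and 16.4% had GAGAG without GTGTGT. The state of the promoters depends on the window. With 250 bp on each side 1 of the 3 had GTGTGT, and with 50 bp 2 had GAGAG. The shares over all summits are for 100 bp, so these counts have no share beside them. The bases around the 3 start-site summits are shown because they are the sites on which the comparison of the genes rests. All lie upstream of the start site, in intergenic sequence, and read 5′ to 3′ on the plus strand. Capitals mark every copy of GAGAG or CTCTC (the letters of GAGAG on either strand), and there is no copy of GTGTGT or ACACAC to mark. The sequence of mirr does hold CACACA, the same alternation in the other phase, which is not in capitals.
mirr, chr3L:12693382-12693572, summit 162 bp upstream: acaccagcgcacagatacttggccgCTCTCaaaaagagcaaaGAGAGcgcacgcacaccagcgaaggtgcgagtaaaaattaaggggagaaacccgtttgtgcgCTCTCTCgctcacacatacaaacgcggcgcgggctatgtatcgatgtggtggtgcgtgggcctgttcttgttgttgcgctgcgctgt
caup, chr3L:12609436-12609626, summit 100 bp upstream: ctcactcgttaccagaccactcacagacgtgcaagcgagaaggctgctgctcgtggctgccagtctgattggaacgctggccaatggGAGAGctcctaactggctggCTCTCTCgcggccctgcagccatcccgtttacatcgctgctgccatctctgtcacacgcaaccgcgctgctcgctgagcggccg
ara, chr3L:12580372-12580562, summit 205 bp upstream: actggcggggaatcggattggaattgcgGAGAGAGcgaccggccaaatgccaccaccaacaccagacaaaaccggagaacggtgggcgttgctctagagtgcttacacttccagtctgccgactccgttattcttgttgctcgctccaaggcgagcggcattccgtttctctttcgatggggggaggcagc
The longest stretch that the 201-bp windows around these summits had in common on either strand was 10 bases for mirr and caup, 9 for mirr and ara, and 8 for caup and ara. In each of the 13 windows around the summits, 100% of the 36-base words occurred once in the genome assembly, so reads of at least that length can be placed at 1 position. Nothing in the labels gives the read length.

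Most summits away from the promoters had GT runs nearby, stretches of alternating G and T on either strand. GTGTGT lay within 100 bp of 9 of these 10 summits, against 67.9% of all thresholded summits beyond 1 kb of a start site. Within 50 bp it lay at 7 of the 10, a window for which no share over all summits was taken. The 3 shown have runs of 18 to 21 bases, and capitals mark each copy of GTGTGT or its reverse complement ACACAC. The first lies in an intron of the neighbouring gene sowah, the second in an intron of lncRNA:CR32111 and the third in an intron of mirr.
Upstream of ara, chr3L:12566018-12566138: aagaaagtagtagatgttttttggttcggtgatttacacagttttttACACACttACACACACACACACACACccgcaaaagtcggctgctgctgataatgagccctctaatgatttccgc
Downstream of caup, chr3L:12638464-12638584: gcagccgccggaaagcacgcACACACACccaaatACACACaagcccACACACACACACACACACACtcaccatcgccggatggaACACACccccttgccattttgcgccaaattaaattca
Inside mirr, chr3L:12701122-12701242: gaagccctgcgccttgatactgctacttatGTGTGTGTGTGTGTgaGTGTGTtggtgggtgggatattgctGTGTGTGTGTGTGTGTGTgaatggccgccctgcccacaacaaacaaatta
These sites ranked 4464, 3496 and 7237, so a long GT run was found at summits of middling and of low signal.

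The start site of mirr carried by far the highest peak of the complex. Its summit ranked 63 of 7913 in the thresholded list, with a signal of 10800, which is 11.9 times the median of that list. In replicates 1, 2 and 3 it ranked 60, 55 and 59 among the 30000 peaks of each list (mean 58.0 ± 2.65, SD, n = 3). The replicate values lie within a few ranks of each other. The peak interval, from 12692528 to 12693941, was 1414 bp wide and reached past the start site into the gene, and 12.4% of thresholded summits lay in intervals at least as wide. This rank was known from an earlier reading of these lists and is given as a description.

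The peaks at the starts of caup and ara were far lower than that of mirr, with signals of 0.976 and 0.664 times the median of the thresholded list. The caup summit at 12609531 ranked 4031 in the thresholded list, with a signal of 889. In the 3 replicates it ranked 4104, 4139 and 4706 (mean 4316 ± 338, SD, n = 3). The ara summit at 12580467 ranked 5460, with a signal of 604, and its replicate ranks were 6117, 5118 and 5744 (mean 5660 ± 505, SD, n = 3). The replicate ranks of caup and ara do not overlap, with caup the higher in each replicate, and those of mirr lie far from both.

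Set as a ratio within each replicate, the start-site signal of mirr was 19.9, 14.5 and 17.5 times that of ara (mean 17.3 ± 2.75, SD, n = 3). Over caup the ratio was 12.0, 11.2 and 13.6 (mean 12.3 ± 1.23, SD, n = 3), and caup over ara gave 1.67, 1.29 and 1.28 (mean 1.41 ± 0.221, SD, n = 3). All 3 ratios lay above 1 in 3 of 3 replicates, and the smallest two-sided p that an exact sign-flip test over 3 replicates allows is 0.25, so such a test cannot reach the usual threshold. The replicate lists were made against the same control alignment, so the replicates are not fully independent in this respect.

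**Figure D1:**
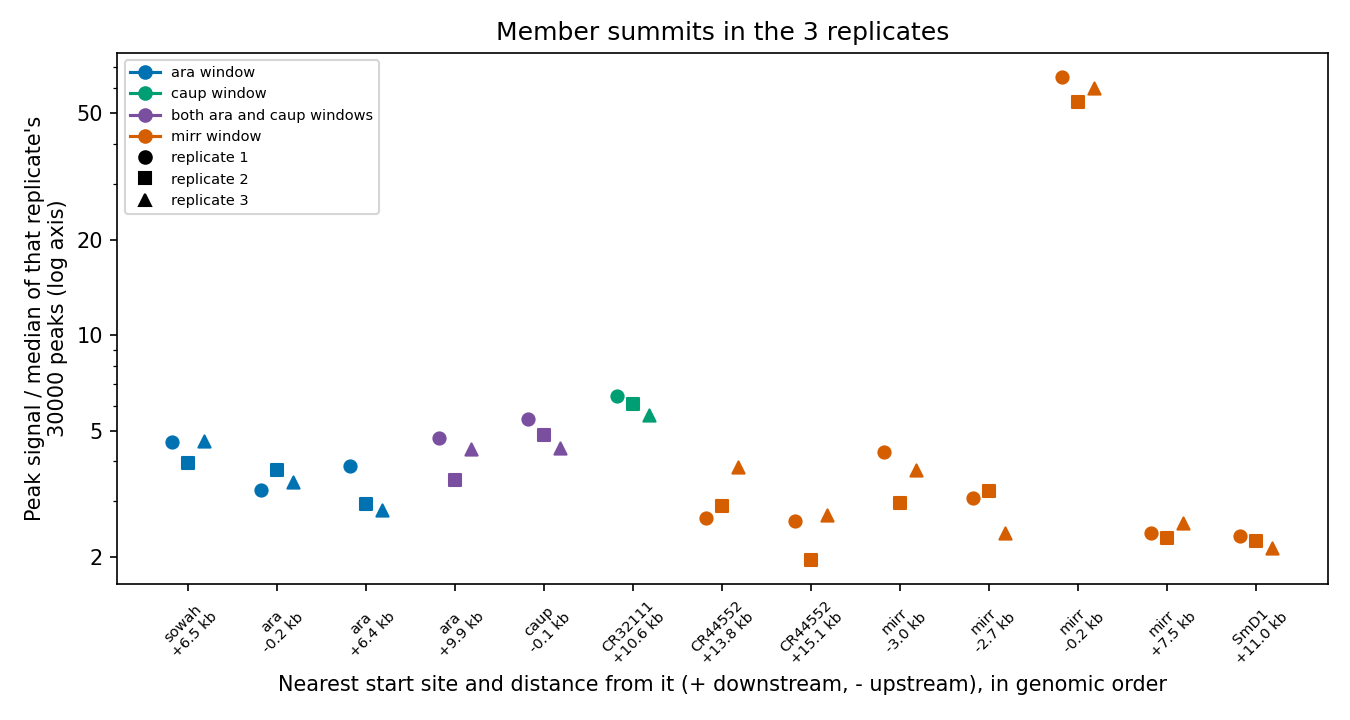
Peak signal of the 13 summits in each replicate, divided by the median of that replicate's 30000 peaks (log axis), in genomic order; colours give the gene window and symbols the replicate. The mirr start-site summit stands at 54.4 to 65.1 times the median, and no other summit exceeds 6.41 times.

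All 3 genes had a start-site summit, that is, one within 1 kb, as had 22.9% of all protein-coding genes (3192 of 13945). All 3 also had a summit within 20 kb, which 77.6% of protein-coding genes had, so the second count is close to the background. Among the 3192 genes ordered by their highest start-site summit, mirr took place 56, caup place 2296 and ara place 2652. The genes next to mirr in this order were sd, which encodes the DNA-binding partner of Yorkie (rank 62), and Imp, which encodes an RNA-binding protein (rank 64). Next to caup stood CG12768 and c11.1 (ranks 4030 and 4032), and next to ara stood CG15365 and kairos (ranks 5456 and 5465). For these neighbours only ranks in the thresholded list were compared, and their replicate ranks were not read. By number of summits within 20 kb, 17.0% of protein-coding genes had at least as many as mirr, 30.6% at least as many as ara and 51.3% at least as many as caup, with a median of 3 over all genes. These shares take no account of gene length.

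**Figure D2:**
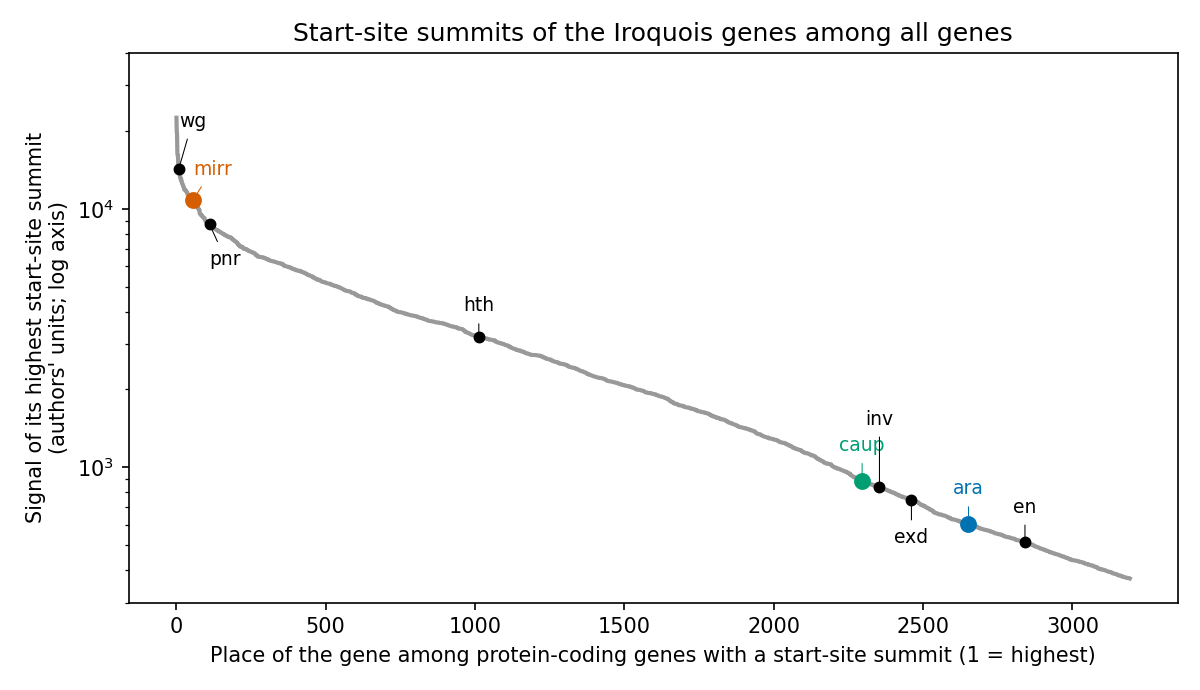
Signal of the highest start-site summit (authors' units, log axis) against the gene's place among the 3192 protein-coding genes that have one (grey line), with the Iroquois genes in colour and other genes in black. The mirr point lies at place 56, between wg and pnr, while caup and ara lie at places 2296 and 2652, far below hth.

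Away from the start sites, the 10 remaining summits were modest. Over all 13 summits the median rank was 5120, against 3957 for the whole list, and 11 of the 13 ranked below 3956. Leaving out the mirr promoter, the signals spanned 0.438 to 1.18 times the median of the list and the intervals were 129 to 504 bp wide, against a median width of 579 bp over all thresholded summits. By annotation, 8 of the 13 summits were intergenic, the 3 start-site summits among them, and 5 lay in introns, with none in an exon. No such shares were taken over all thresholded summits, so these counts are not read as a trait of the complex. Within 1 kb of a start site lay 3 of the 13, against 57.0% of all thresholded summits (4514 of 7913).

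**Figure D3:**
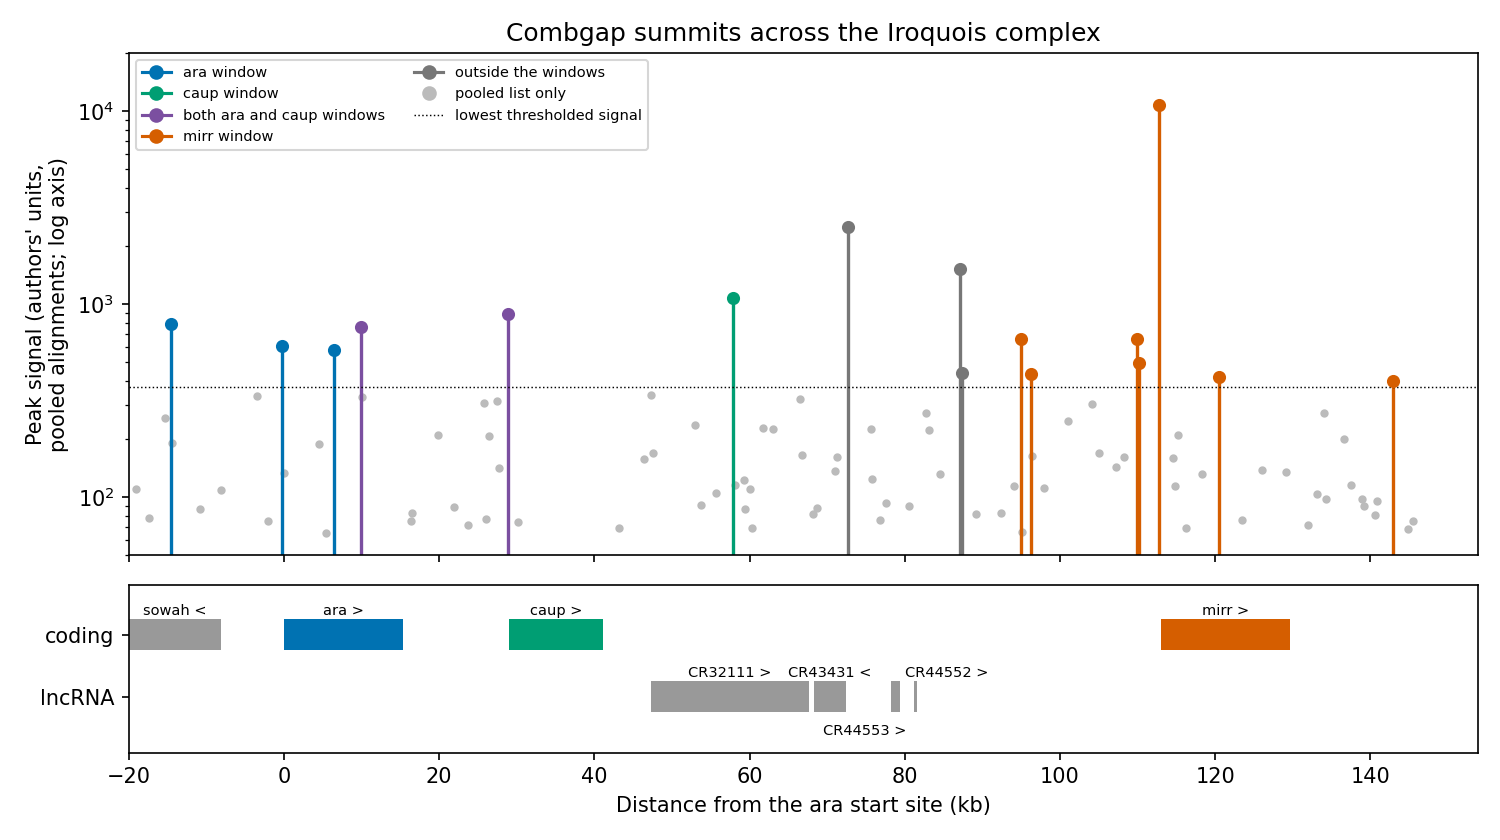
Map of the complex with distance from the ara start site (kb) along the x axis and peak signal (authors' units, log axis) along the y axis; stems are thresholded summits coloured by gene window, grey dots are peaks of the pooled list alone, and bars below are genes with their direction. One stem, at the mirr start, rises to 10800, and the next within a gene window, in lncRNA:CR32111, reaches 1080.

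Around ara, the highest of its own summits apart from that at the caup promoter lay 6464 bp downstream of the start of sowah, in an intron of that gene. At 12566078 it ranked 4464 (4702, 4898 and 4523 in the replicates), with the summit inside an 18-base GT run. The intronic summit of ara at 12590557, 9885 bp into the gene, ranked 4590, with replicate ranks of 4591, 5417 and 4762. Another intronic summit of ara, at 12587111, ranked 5636, with replicate ranks of 5371, 6182 and 6677. The summit at 12590557 ranked above that at 12587111 in each of the 3 replicates, although their ranges overlap. Neither stood above or below the ara promoter in every replicate.

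No summit lay inside caup itself. Besides its promoter and the intronic summit of ara at 12590557, caup had a summit at 12638524, inside lncRNA:CR32111, 10590 bp downstream of that gene's start. It ranked 3496 (3631, 3443 and 3900 in the replicates; mean 3658 ± 230, SD, n = 3). That made it the highest summit within the gene windows after the mirr promoter. Between caup and mirr, outside the windows, summits at 12653337 and 12667776 ranked higher (1545 and 2588). The summit at 12638524 can be set against the caup promoter as well. Its replicate ranks lay above those of the caup promoter in every replicate.

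Around mirr, 4 summits lay upstream besides the promoter, 1 inside the gene and 1 beyond its end. A pair at 12690617 and 12690891, 3022 and 2748 bp upstream of the start, ranked 5120 and 6334. Their replicate ranks were 4981, 6151 and 5354 for the first and 6424, 5760 and 7621 for the second, so the ranges overlap. The summit at 12675611, 18028 bp upstream of mirr, ranked 5102 (7136, 6231 and 5282 in the replicates), and its neighbour at 12676902 ranked 7025 (7289, 8515 and 6909). The intronic summit at 12701182 ranked 7237 (7782, 7539 and 7240), and the one past the gene at 12723601, which lies nearer to the spliceosomal gene SmD1, ranked 7542 (7951, 7671 and 8253). The last is the weakest of the complex, with a signal of 399, where the thresholded list ends at 372. Every one of the 13 summits overlapped a peak in all 3 replicate lists, with replicate summits at most 91 bp away. The thresholded list was exactly the 7913 highest peaks called on the pooled alignments of the same replicates. The recurrence of these summits is therefore a description and not independent support.

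GTGTGT, on either strand within 100 bp of the summit, was found at 9 of the 13 summits, against 63.3% of all thresholded summits (5010 of 7913), a share close to the background. Windows moved by 1 kb held it at 3 of 13 sites on the lower-coordinate side and at 1 of 13 on the other. Neither moved windows nor windows of other lengths were counted over all thresholded summits, so those counts have no background beside them. The 9 did not include any promoter: GTGTGT was at 0 of the 3 start-site summits and at 9 of the 10 others. Over all thresholded summits the share was 59.8% within 1 kb of a start site and 67.9% beyond. With 250 bp on each side, or over the whole peak interval, 1 of the 3 promoters had the motif, and over the interval that was the wide peak of mirr. These counts take the letters in 1 phase alone. Within 100 bp of its summit the mirr promoter holds CACACA, a GT run of 6 bases in the other phase.

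GAGAG, the core letters of the motif bound by GAGA factor, showed the other arrangement. It lay within 100 bp of all 3 start-site summits and of 2 of the 10 others, against 42.2% of all start-site summits and 41.3% of all others. Within 50 bp it lay at 2 of the 3 start-site summits. Over the whole peak interval all 3 promoters held it, and so did the distal summits at 12675611 and 12676902 besides the 2 counted here. GAGAG without GTGTGT, the state of all 3 Iroquois promoters, was found at 16.4% of all start-site summits. One of the 2 distal sites with GAGAG was the mirr upstream summit at 12690891. It is shown as the only distal summit of the complex without GTGTGT within 100 bp, and CTCTC is in capitals:
Upstream of mirr, chr3L:12690831-12690951: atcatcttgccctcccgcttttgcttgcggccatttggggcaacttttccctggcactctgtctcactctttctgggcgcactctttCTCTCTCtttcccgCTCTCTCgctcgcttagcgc
The other was the summit at 12587111 inside ara, shown as the only one that holds both motifs within 100 bp:
Inside ara, chr3L:12587051-12587171: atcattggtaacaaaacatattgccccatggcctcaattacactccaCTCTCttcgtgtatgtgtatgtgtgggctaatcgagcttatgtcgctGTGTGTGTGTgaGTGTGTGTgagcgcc
A motif match is a description of letters and not evidence of a bound factor.

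GCCAT, the core letters of the site of Pleiohomeotic, a Polycomb recruiter, lay within 100 bp of 7 of the 13 summits, against 29.9% of all thresholded summits, and of the 3 promoters only that of caup held it in this window. ACANNTGT, a palindromic sequence reported for Iroquois proteins, lay at 2 of the 13, against 14.3% of all. GCCAT cannot overlap GTGTGT in the phase counted here, GAGAG can share 1 end base with GTGTGT, and either end of the Iroquois motif can lie in a GT run. A longer GT run, or one in the other phase, can share 1 end base with GCCAT. Few summits stand behind each of these counts, and neighbouring summits are not independent.

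The longest GT run within 100 bp of a summit had a median of 10 bases over the 13 summits and 7 over all 7913. Runs of at least 15 bases were found at 5 of the 13, against 13.9% of all summits. The 3 promoters had longest runs of 4 to 6 bases, while the distal summits had runs of 3 to 21 bases.

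**Figure D4:**
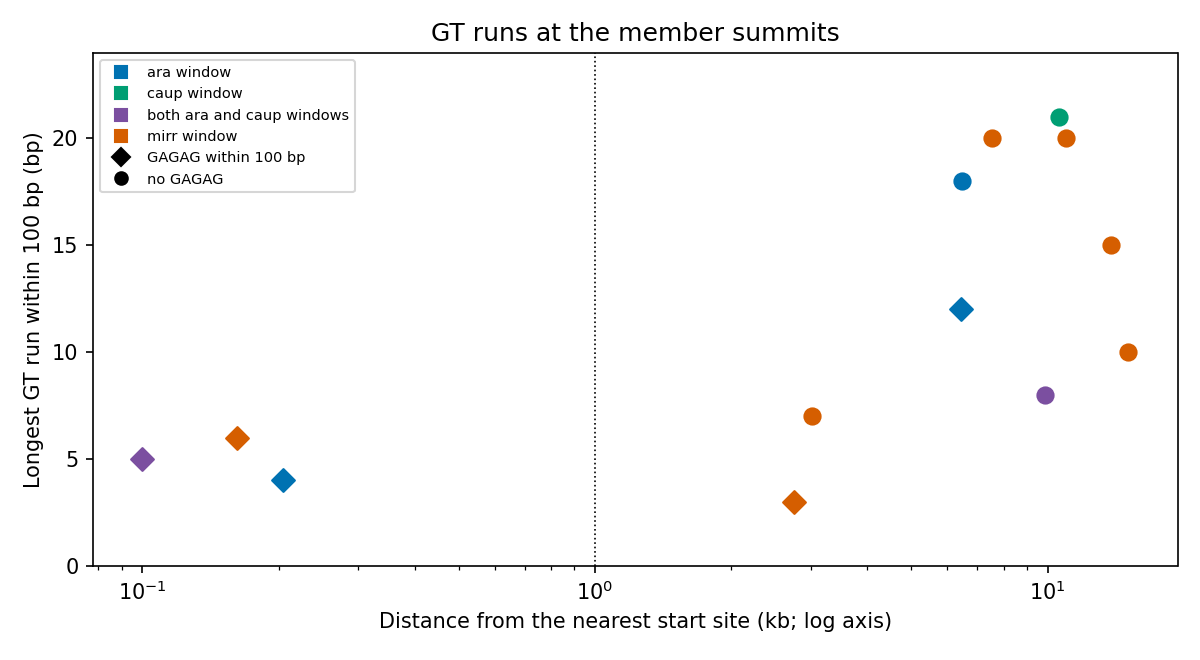
Longest GT run within 100 bp of the summit (bp) against distance from the nearest annotated start site (kb, log axis) for the 13 summits; colours give the gene window, diamonds mark sites with GAGAG and the dotted line marks 1 kb. The 3 promoters, at the left, have runs of 4 to 6 bases and all are diamonds, and the runs of 15 bases or more all lie beyond 1 kb.

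A long GT run was not always marked. The windows of the 3 genes held 7 runs of at least 16 bases. A thresholded summit lay within 100 bp of the middle of 1 of 2 in the ara window, 1 of 2 in that of caup and 3 of 3 in that of mirr. On all arms this held for 19.0% of 4997 such runs. In the mirr window 2 of the 3 runs lie beside the same summit, at 12701182, so they are not separate cases. The caup window has a pair of 21-base runs about 2 kb apart, both in introns of lncRNA:CR32111, with unlike signal. The run from 12638509 to 12638529 is the one under the summit of rank 3496. The run from 12636343 to 12636363 had its nearest thresholded summit 2171 bp away, and the closest peak of the pooled list, 22 bp from the middle of the run, ranked 20905 (24524, 23648 and 15649 in the replicates). The ranks at these runs lie far apart in every replicate. The sequence around the weakly marked run is shown for comparison with that downstream of caup given above:
Weakly marked run, chr3L:12636293-12636413: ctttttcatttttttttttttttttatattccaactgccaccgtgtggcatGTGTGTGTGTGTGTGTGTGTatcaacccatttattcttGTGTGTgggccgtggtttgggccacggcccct
Whether reads map equally well over both runs was not tested.

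Below the threshold, the list called on the pooled alignments of all replicates held more peaks near the genes. In the windows it had 28 peaks for ara, 27 for caup and 36 for mirr. The thresholded list was exactly its 7913 highest peaks. The highest peaks left out were those at 12577153 for ara (rank 8536, signal 336), at 12627958 for caup (rank 8451, signal 340) and at 12684857 for mirr (rank 9267, signal 303). The first lies beside a 19-base GT run, 3519 bp upstream of the ara start, and the second lies 24 bp downstream of the start of lncRNA:CR32111. The lowest thresholded summits of the windows ranked 5636 for ara (signal 580), 4590 for caup (signal 758) and 7542 for mirr (signal 399). Of these, that of mirr alone lies near the end of the list at rank 7913, and those of ara and caup lie well above it.

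Other genes of the TALE class gave no single pattern. The gene hth, whose product brings the Hox partner Extradenticle into the nucleus, had 20 summits in its 132-kb body. The highest of them ranked 570, and the highest at a start site ranked 1144. The gene exd, which encodes Extradenticle, had a start-site summit at rank 4641. The adjacent spermatogenesis genes achi and vis had none at a start site and shared a highest rank of 1428 within 20 kb. Another pair of neighbouring homeobox genes, en and inv, had start-site summits at ranks 6190 and 4222, the first below ara and the second between caup and ara. Within 20 kb, however, their highest summits ranked 4462 for en and 1289 for inv.

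Of a list of 40 genes that act upstream, beside or downstream of the Iroquois genes in discs, eye and ovary, 39 were matched to the annotation. The list was drawn up with earlier results of these data known. A start-site summit was found at 30 of the 39 (76.9%), against 22.9% of all protein-coding genes, and 34 of 39 had a summit within 20 kb, against 77.6% of all. Only the ligand genes wg and hh had a higher start-site summit than mirr (ranks 16 and 29). Close below it were ci, the transcription factor of Hedgehog signalling (rank 66), bi (rank 70) and nub (rank 78). By contrast, 25 of the 39 stood above caup and 27 above ara. The GATA factor gene pnr, which is known to act in the dorsal eye and notum, ranked 121, and its cofactor gene ush, with 24 summits within 20 kb, ranked 974. The start of Dr, a homeobox gene of the notum, ranked 275, and that of the Dpp receptor gene tkv ranked 1075.

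The remaining 5 of the 39 had no thresholded summit within 20 kb. This is no larger a share than over all protein-coding genes, of which 10820 of 13945 had one, so nothing is read from it about these genes. The proneural genes ac and sc, which ara and caup activate in the wing disc, were among the 5, as was their relative l(1)sc. Another relative, ase, had a start-site summit at rank 5384. The genes fng, which encodes a modifier of Notch, and pip, which mirr represses in the ovary, were the others. The longer pooled list was not searched at these genes. Depth is unknown and mapping at these genes was not examined, so a missing summit does not show that binding was absent.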

How the data were processed

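The data were peak lists from Combgap ChIP-seq in 3 biological replicates of whole embryos. Fragments from sonication ranged from 200 to 800 bp, per the labels' descriptions. The authors deposited 5 lists on dm6, with 30000 peaks in each replicate list and in the list from pooled alignments, and 7913 in the IDR-thresholded list. Per the deposited text listings, all were derived from the replicate alignments and 1 shared control alignment. For the aligner, the peak caller and the IDR threshold, no name or value is given in the sources used here. Peak signal, as deposited by the authors, has no stated scale. The authors also deposited −log10 q values, read so by file convention, which stood at a ceiling of 4.35 for every thresholded peak. Depth is unknown, so no precision from depth can be stated.

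Genes came from Ensembl release 115 (BDGP 6.54) and sequence from RefSeq's copy of the release 6 assembly, which has the coordinates of dm6. Computing used Python 3.11.15, numpy 2.4.6, pandas 2.3.3 and matplotlib 3.10.9. A replicate value is that of the overlapping replicate peak (at least 1 bp) with the nearest summit. Motifs were sought on either strand within 100 bp of a summit. The counting steps were tested on simulated data. The genes, gene lists and measures were chosen with earlier results of these data known, so no list was tested. The genes named were the 3 Iroquois genes, genes in or beside their windows, the genes next to each in the order of start-site summits, other TALE genes, en and inv, and the list of related genes. The 21-base runs were singled out after their values were seen.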

Additional observations from a re-analysis of the deposited data

How the results depend on the processing

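Counts of summits by gene depended on the distance allowed. With the gene body alone ara, caup and mirr had 2, 0 and 1 summits, with 5 kb and with 10 kb they had 3, 1 and 4, and with 50 kb caup had 9 and mirr 11. The highest 3956 peaks of the list left 0, 1 and 1, and the pooled list gave 28, 27 and 36. Given to the nearest protein-coding start site, ara had 3. Of the 13 summits, 4 were among the 5000 highest of every replicate list, and 5 lay within 5 kb of a start site. GTGTGT was at 3 and 1 of 13 sites moved by 1 kb. Motif shares over all thresholded summits were taken with 100 bp and unmoved windows alone. At the 3 promoters it was at 1 with 250 bp and at 1 over the whole interval, and GAGAG was at 2 of them with 50 bp and at all 3 with 250 bp or the whole interval; these windows were added after the data were seen. Leaving out a replicate moved the mean start-site rank of mirr between 57 and 59.5, that of caup between 4122 and 4422 and that of ara between 5431 and 5930. The ratio of mirr to ara stayed between 16 and 18.7, that of mirr to caup between 11.6 and 12.8 and that of caup to ara between 1.29 and 1.48. The pooled list gave the same ranks by construction. One group of samples allows no comparison of conditions, and the unknown depth limits what a missing peak can show.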

Other observations

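The gap between caup and mirr, outside the windows of the genes, held 3 more thresholded summits, of which 2 were higher than every summit of the complex other than the mirr promoter. The highest, at 12653337, lay 247 bp upstream of the start of lncRNA:CR43431, 31539 bp past the end of caup. It ranked 1545 in the thresholded list and 1457, 1728 and 1725 in the replicates (mean 1637 ± 156, SD, n = 3). Like the Iroquois promoters it had GAGAG and no GTGTGT within 100 bp. The other 2, at 12667776 and 12667979, shared an interval 5950 and 6153 bp downstream of the start of lncRNA:CR44552, with the nearer to mirr 25660 bp from it. They ranked 2588 (2642, 3177 and 2564 in the replicates) and 7008 (7657, 10261 and 6124), and only the first had GTGTGT within 100 bp. With these, the 170 kb from 12560672 to 12730249 held 16 summits, or 94.4 per Mb, against 59.1 per Mb over all 6 arms. These summits were described after their values were seen, and which gene they serve was not tested.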
